A study of Mus musculus with 6 samples.

Results

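Oxidative phosphorylation is the energy-yielding pathway of the inner mitochondrial membrane, and the transcripts of its subunits were followed here in single bone marrow-derived macrophages. Members were chosen by name from the rows of the count matrix. Rows starting mt-Nd, mt-Co, mt-Cyt or mt-Atp are the protein genes of the mitochondrial genome. Rows starting Uqcr or Atp5, the numbered Nduf and Cox4 to Cox8 genes, and Sdha to Sdhd are encoded in the nucleus. The rule used no measured value and found 92 of 18429 rows, 13 of them mitochondrial-encoded and 79 nuclear-encoded. Pseudogene rows whose names contain "-ps" (4 rows) were left out.

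Macrophages came from bone marrow of mice that were homozygous for creERT2 at the Rosa26 locus and carried either wild-type or floxed Rad21 alleles. The cultures of both genotypes received 4-hydroxy-tamoxifen before the experiment, so that the inducible Cre was active in controls as well. Per the paper, Cre deleted the floxed alleles in the cultured macrophages, and these cells are called Rad21-/- here. Rad21 encodes a subunit of cohesin, the ring complex that folds chromosomes into loops. Untreated cells were compared with cells given lipopolysaccharide (LPS), a bacterial cell wall component, at 10 ng/ml for 2 or 8 h. Cells were sorted singly into plates for MARS-seq, in which each transcript is tagged with a unique molecular identifier (UMI) so that copies of it count once. Each of the 6 combinations of genotype and time was 1 sample, so no difference here has a replicate check, no test was run, and all intervals are 95% intervals of counting error only.

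The respiratory chain passes electrons from NADH and succinate to oxygen through complexes I to IV and pumps protons, and complex V, the ATP synthase, uses the resulting gradient to make ATP. Complex II is built from nuclear-encoded subunits alone, whereas the other complexes combine nuclear-encoded subunits with a core made inside the mitochondrion. A separate polymerase transcribes the mitochondrial genome into long polycistronic RNAs, from which nucleases cut the mRNAs, and LPS-stimulated macrophages are known for a shift from respiration towards glycolysis.

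The 6 samples together held 1362 cells, with 1417409 to 2195921 UMIs per sample and a median of 5577 to 7056 UMIs per cell. In 17 wells more than 25000 UMIs were counted, and 5 of these wells held 45.5% of the UMIs of the wild-type 2 h sample, so all 17 were left out of the values below unless stated otherwise. Rad21 itself was found at 64.3, 50.9 and 34.1 UMIs per 1000000 UMIs of the sample (CPM) in wild-type cells that were untreated or stimulated for 2 or 8 h, and at 5.46, 8.01 and 6.92 CPM in Rad21-/- cells. Macrophage markers summed to 9529, 10654 and 7832 CPM in wild-type cells, in the same order. In Rad21-/- cells these markers summed to 6230, 6911 and 6316 CPM, below wild-type cells at each time. Those of neutrophils summed to 0 to 13.3 CPM, of B cells to 10.9 to 24.0, of T and NK cells to 4.25 to 10.95, of dendritic cells to 23.6 to 32.6, of mast cells to 9.19 to 24.9 and of stroma to 8.65 to 19.9 CPM, with 1 to 3 markers of each of these types in the matrix. Erythroid and platelet markers, 2 of 6 in the matrix, summed to 202 to 232 CPM in wild-type cells and 311 to 418 CPM in Rad21-/- samples, and their part in the results was not tested. No cell name occurred in more than 1 sample.

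The 24 library pools, numbered here from 1 to 24 in the order of their names, bear on every value below. Each pool held a single time point, so the time of LPS stimulation and the pool cannot be told apart, whereas 18 pools had both genotypes with 10 or more cells each. Wild-type cells occupied well numbers up to 92, and Rad21-/- cells those from 21 to 188 and mostly the upper range, so genotype and well position cannot be told apart in most pools. Pools with an odd number differed from those with an even number in mitochondrial RNA, a split noticed after the data were seen, and the meaning of the numbering is not given in the sources used here.

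As a group, the 13 mitochondrial-encoded genes took 2.47% of UMIs in untreated wild-type cells, 2.01% at 2 h and 1.86% at 8 h. In Rad21-/- cells they took 2.58% untreated, 2.03% at 2 h and 1.73% at 8 h. The 79 nuclear-encoded genes took 1.59%, 1.34% and 1.17% of UMIs in wild-type cells and 1.67%, 1.43% and 1.53% in Rad21-/- cells. The nuclear-encoded sum was thus lowest in wild-type cells at 8 h, over all pools and within odd-numbered and even-numbered pools. The mitochondrial-encoded sum was lowest in Rad21-/- cells at 8 h over all pools and in even-numbered pools, at 0.700%, whereas in odd-numbered pools the wild-type 8 h sample was lowest, at 2.66% beside 2.83% in Rad21-/- cells. The ratio of mitochondrial-encoded to nuclear-encoded UMIs was 1.55 (interval 1.52 to 1.57), 1.501 (1.47 to 1.53) and 1.59 (1.56 to 1.62) in untreated, 2 h and 8 h wild-type cells. It was 1.54 (1.52 to 1.57), 1.42 (1.39 to 1.45) and 1.13 (1.11 to 1.15) in Rad21-/- cells, lowest at 8 h. In odd-numbered pools the Rad21-/- 8 h sample, at 2.03, lay within the range of 1.88 to 2.72 of the 6 samples, and in even-numbered pools it was lowest, at 0.42 beside 0.54 in Rad21-/- cells at 2 h and up to 1.31 in the other samples. With the deepest wells included, the wild-type 2 h sample instead had the lowest mitochondrial share, 1.42%, and the lowest ratio, 1.05. The 17 wells had 1.02% of their UMIs in mitochondrial-encoded genes and 1.41% in nuclear-encoded genes.

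**Figure D1:**
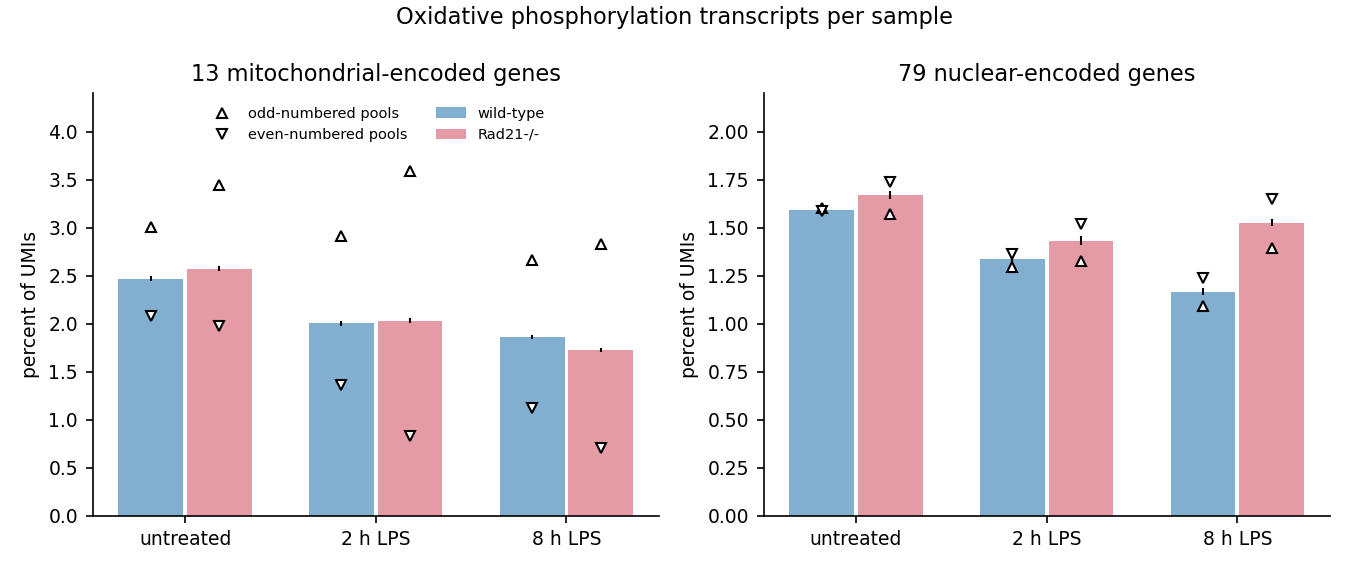
Percent of UMIs in the 13 mitochondrial-encoded (left) and the 79 nuclear-encoded genes (right) in the 6 samples, without the 17 deepest wells. Bars give each sample with its 95% interval of counting error, and triangles give the same sample in odd-numbered or even-numbered library pools alone. In the mitochondrial panel the triangles of every sample lie far apart, from 0.700% to 3.60%, whereas in the nuclear panel they lie between 1.09% and 1.74%.

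Mitochondrial-encoded transcripts differed more between library pools than between the samples. Over these 18 pools, their share of UMIs ran from 0.750% to 3.56%, a 4.75-fold range, while the share of the nuclear-encoded genes ran from 1.15% to 1.94%, a 1.69-fold range. At 2 h, the odd-numbered pools 13 and 15 had 3.08% and 3.56% of UMIs in mitochondrial-encoded genes, and their neighbours 14 and 16 had 0.831% and 1.32%. At 8 h, odd-numbered pools had 2.31% to 3.16% and even-numbered pools 0.750% to 1.05%. Untreated pools overlapped, with 2.55% to 3.48% in odd-numbered and 0.764% to 2.92% in even-numbered pools. Of 9 adjacent pairs of pools, 8 had the higher mitochondrial share in the odd-numbered pool, and 1 had the higher nuclear share there. For the mitochondrial genes with at least 300 UMIs, log2 ratios against untreated cells are therefore also given within each kind of pool, in the order wild-type 2 h, wild-type 8 h, Rad21-/- 2 h and Rad21-/- 8 h.

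**Figure D2:**
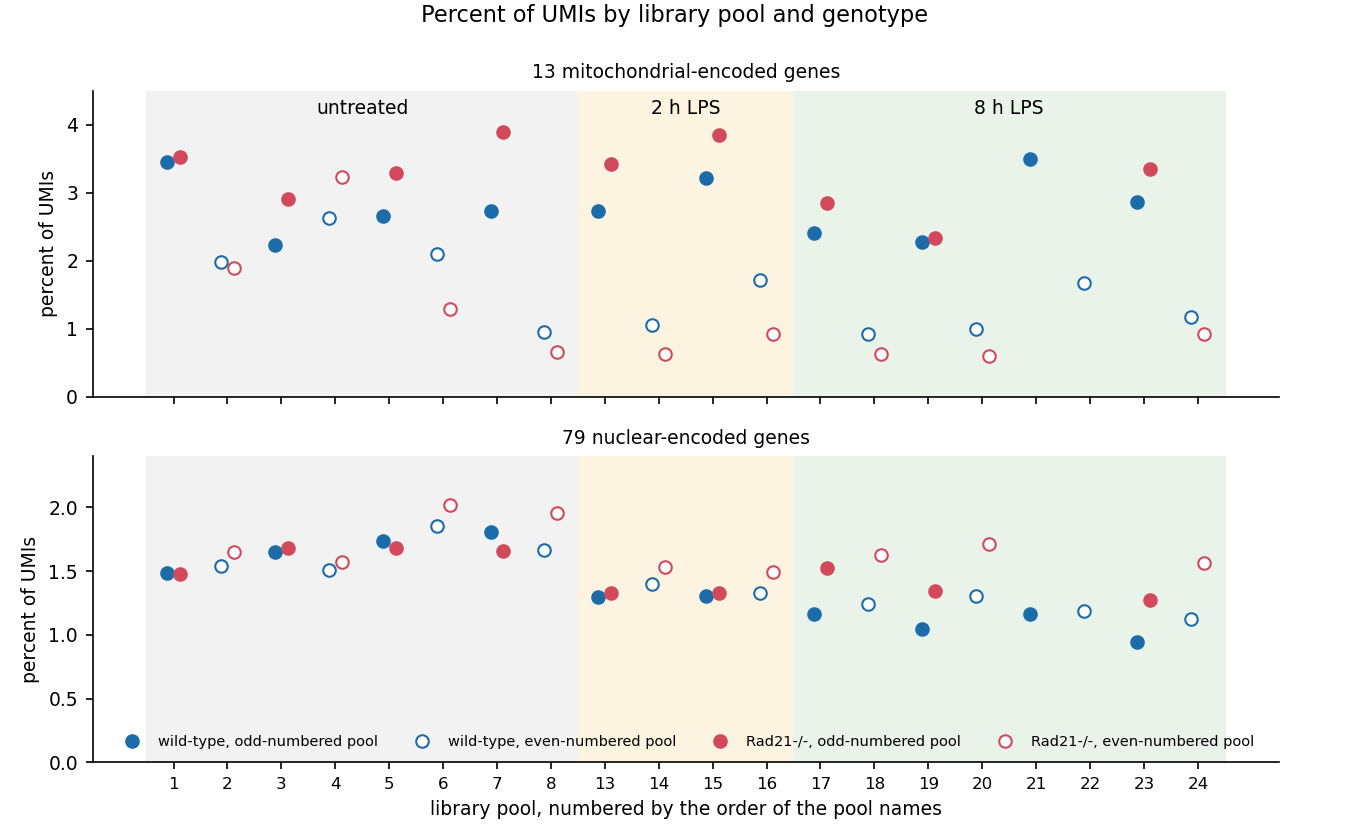
Percent of UMIs in mitochondrial-encoded (top) and nuclear-encoded genes (bottom) for each library pool (x axis) and genotype with at least 10 cells, with filled circles for odd-numbered and open circles for even-numbered pools. Mitochondrial shares alternate between neighbouring pools from pool 13 onwards, and nuclear shares at 8 h are higher in Rad21-/- than in wild-type cells in each of the 6 pools with at least 10 cells of each genotype.

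Within pools, the genotype difference of the mitochondrial-encoded sum went both ways. In all 9 odd-numbered pools the share was higher in Rad21-/- than in wild-type cells, by 0.03 to 0.51 on the log2 scale. In 8 of 9 even-numbered pools it was lower in Rad21-/- cells, and the log2 ratio ran from -0.89 to 0.30. The pooled genotype ratio of the mitochondrial sum was 0.06 on the log2 scale (interval 0.04 to 0.08) in untreated cells, 0.02 (-0.01 to 0.04) at 2 h and -0.11 (-0.13 to -0.08) at 8 h. In odd-numbered pools alone these ratios were 0.20, 0.31 and 0.09, and in even-numbered pools alone they were -0.08, -0.72 and -0.69. A pooled value near 0 here was thus a sum of opposite differences. Mitochondrial rRNA, given by mt-Rnr1 and mt-Rnr2, moved the same way, being higher in Rad21-/- cells in 9 of 9 odd-numbered pools and lower in 7 of 9 even-numbered pools.

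LPS comparisons of the mitochondrial sum also depended on the pools. Pooled log2 ratios against untreated cells were -0.30 (interval -0.32 to -0.28) at 2 h and -0.41 (-0.43 to -0.39) at 8 h in wild-type cells, and -0.34 (-0.36 to -0.32) and -0.58 (-0.60 to -0.55) in Rad21-/- cells. In odd-numbered pools they were -0.05 and -0.18 in wild-type cells and 0.06 and -0.28 in Rad21-/- cells, whereas in even-numbered pools they were -0.62 and -0.89, and -1.26 and -1.49. At 8 h the direction was thus the same in both kinds of pool and in both genotypes, and at 2 h it was not. Single pools also carried weight, and without pool 14 the 2 h ratios were -0.10 in wild-type cells and -0.04 in Rad21-/- cells, whereas without pool 15 they were -0.52 and -0.76. The 8 h ratio in Rad21-/- cells was -0.33 without pool 20, and that in wild-type cells was -0.24 without pool 1.

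Single cells showed the same split. In odd-numbered pools the median cell had 3.16% of its UMIs in mitochondrial-encoded genes in untreated wild-type cells, 2.90% at 2 h and 2.65% at 8 h, and 3.53%, 3.67% and 2.71% in Rad21-/- cells. In even-numbered pools the medians were 2.17%, 1.35% and 1.05% in wild-type cells and 1.81%, 0.698% and 0.640% in Rad21-/- cells. Over 31 sets of at least 20 cells of the same pool and genotype, the correlation between the mitochondrial-encoded and the nuclear-encoded share of a cell ran from -0.51 to 0.37 with a median of -0.02. The correlation of the mitochondrial-encoded share with mitochondrial rRNA had a median of 0.72 and was above 0 in all 31 sets, with both measures sharing the total of the cell as denominator.

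Among the mitochondrial genes of complex I, which encode the membrane arm that pumps protons, mt-Nd1 (MT:2751-3707, GRCm38.p6) was found at 4927, 3792 and 2673 CPM in untreated, 2 h and 8 h wild-type cells and at 5040.0, 3863 and 2945 CPM in Rad21-/- cells. Its level was lower at 8 h than in untreated cells in both genotypes, with log2 ratios of -0.88 (interval -0.94 to -0.83) and -0.78 (-0.83 to -0.72). Its ratios at both times were -0.14, -0.70, 0.00 and -0.55 within odd-numbered pools and -0.75, -1.40, -1.53 and -1.74 within even-numbered pools. For mt-Nd4, the levels were 2762, 2218 and 1587 CPM in wild-type cells and 2909, 2424 and 1615 CPM in Rad21-/- cells. Its 8 h ratios were -0.80 and -0.85 over all pools, and at both times the ratios were -0.01, -0.56, 0.09 and -0.66 in odd-numbered and -0.77, -1.37, -1.20 and -1.59 in even-numbered pools. Levels of mt-Nd2 were 844, 621 and 465 CPM in wild-type cells and 816, 678 and 503 CPM in Rad21-/- cells, again lowest at 8 h. Within odd-numbered pools its ratios were -0.05, -0.39, 0.14 and -0.34, and within even-numbered pools -1.01, -2.06, -1.41 and -2.23. For these 3 genes the 8 h level was below the untreated level in both kinds of pool, whereas in odd-numbered pools at 2 h the ratios lay between -0.14 and 0.14.

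The row mt-Nd4l shares 7 bases with mt-Nd4 on the mitochondrial genome and stood at 143, 167 and 97.7 CPM in wild-type cells and 177.2, 204 and 112 CPM in Rad21-/- cells. Over all pools its log2 ratios at 2 h and 8 h were 0.22 and -0.55 in wild-type cells and 0.21 and -0.66 in Rad21-/- cells. The direction at 2 h held in odd-numbered pools alone, where the ratios were 0.56, -0.38, 0.50 and -0.39, and reversed in even-numbered pools, where they were -0.32, -1.0004, -0.54 and -1.79. Further along, mt-Nd5 was at 1474, 1475 and 1206 CPM in wild-type cells and 1782, 1601 and 1279 CPM in Rad21-/- cells, with ratios of 0.08, -0.11, 0.09 and -0.22 in odd-numbered and -0.06, -0.53, -0.55 and -1.09 in even-numbered pools. The gene mt-Nd6, which overlaps mt-Nd5 by 14 bases on the opposite strand, was at 248, 169.5 and 227 CPM in wild-type cells and 275, 204 and 206 CPM in Rad21-/- cells. Its ratios were -0.11, 0.47, 0.01 and 0.11 in odd-numbered and -0.95, -0.95, -0.97 and -1.33 in even-numbered pools, so that its 8 h direction differed between the kinds of pool in both genotypes. Complex III has a single mitochondrial subunit, cytochrome b, and mt-Cytb was at 2837, 2379 and 1823 CPM in wild-type cells and 3240.1, 2644 and 1706 CPM in Rad21-/- cells. Its 8 h ratio was -0.64 (-0.71 to -0.57) in wild-type cells and -0.93 (-0.99 to -0.86) in Rad21-/- cells, and at both times the ratios were 0.11, -0.35, 0.14 and -0.62 in odd-numbered and -0.86, -1.40, -1.64 and -2.27 in even-numbered pools.

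The catalytic core of cytochrome c oxidase, complex IV, comes from 3 mitochondrial genes. The gene mt-Co1 was at 5353, 5605 and 5412 CPM in wild-type cells, with log2 ratios of 0.07 (0.02 to 0.11) at 2 h and 0.02 (-0.03 to 0.06) at 8 h. In Rad21-/- cells mt-Co1 was at 5779, 5003 and 4637 CPM, with ratios of -0.21 (-0.25 to -0.16) and -0.32 (-0.36 to -0.27). Within odd-numbered pools the ratios of mt-Co1 were 0.26, 0.22, 0.11 and -0.07 and within even-numbered pools -0.09, -0.21, -0.68 and -0.80, so that 3 of the 4 directions differed between the kinds of pool. Levels of mt-Co2 were 3072, 2160.5 and 2537 CPM in wild-type cells and 2908, 2221 and 2082 CPM in Rad21-/- cells, with ratios of -0.05, 0.00, 0.22 and -0.09 in odd-numbered and -1.27, -0.92, -2.40 and -1.89 in even-numbered pools. Those of mt-Co3 were 692, 349 and 646 CPM in wild-type cells and 692, 417 and 665 CPM in Rad21-/- cells, so that this gene was lowest at 2 h in both genotypes over all pools, with 2 h ratios of -0.99 (-1.16 to -0.82) and -0.73 (-0.88 to -0.58). In odd-numbered pools, where it was also lowest at 2 h, its ratios were -0.87, 0.35, -0.14 and 0.53. In even-numbered pools they were -1.14, -1.53, -2.15 and -2.37, and the gene was lowest at 8 h there in both genotypes. The 8 h ratios in odd-numbered pools were opposite in sign to those of mt-Nd1, mt-Nd4 and mt-Cytb, whereas in even-numbered pools all of these were below 0.

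Next to mt-Co3 lies mt-Atp6, the proton channel subunit of complex V, at 2314, 1114 and 1910.0 CPM in wild-type cells and 2116, 1064 and 1522 CPM in Rad21-/- cells. Over all pools it too was lowest at 2 h, with log2 ratios of -1.05 (-1.15 to -0.96) and -0.99 (-1.08 to -0.90). Its ratios were -0.79, 0.08, -0.43 and 0.04 in odd-numbered and -1.46, -1.33, -2.61 and -2.80 in even-numbered pools, where Rad21-/- cells had the lowest level at 8 h. A nuclear row named Gm10925, for which RefSeq lists mt-Atp6 as a synonym, held 16552 UMIs against 15104 for mt-Atp6. Per the study's methods, reads without a unique place were not counted, and how much of mt-Atp6 this touches was not tested, so its level is uncertain. The remaining genes mt-Nd3 and mt-Atp8 were at 2.403 to 5.54 and 8.81 to 18.7 CPM, below the minimum of 300 UMIs used for comparisons, and mt-Atp8 shares 43 bases with mt-Atp6. Of the 13 mitochondrial genes, 11 passed that minimum. Against untreated cells, 2 of these 11 were at least 1.5-fold lower in wild-type cells at 2 h (9.49% of the 5090 genes with that minimum) and 4 at 8 h (27.3%). In Rad21-/- cells 2 were lower at 2 h (4.85%) and 5 at 8 h (11.9%), and none was higher in these 4 comparisons. Within odd-numbered pools the 4 counts of lower genes were 2, 1, 0 and 2, beside 15.6%, 29.7%, 10.3% and 14.7% of all genes. Within even-numbered pools they were 8, 9, 9 and 11, beside 12.2%, 30%, 7.98% and 15.8%, so most members past the fold were so in even-numbered pools.

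Pools of odd and even number differed unequally among the mitochondrial genes. At 8 h, mt-Co3 was 8.25-fold, mt-Rnr1 6.88-fold, mt-Atp6 6.66-fold and mt-Nd2 5.85-fold higher in odd-numbered than in even-numbered pools. Ratios were 1.73 for mt-Co1, 2.07 for mt-Nd5, 2.13 for mt-Rnr2 and 2.76 for mt-Nd6. All 11 mitochondrial members were at least 1.5-fold higher in odd-numbered pools at 2 h and at 8 h, against 4.22% and 6.66% of the 5090 genes that held at least 300 UMIs, and 8 of 11 were so in untreated cells, against 4.11%. Of the 73 nuclear members that passed the same minimum, 1 was at least 1.5-fold higher in odd-numbered pools at each time, and it was Uqcrb each time, a small subunit of complex III. Uqcrb was 3.35-fold higher in odd-numbered pools in untreated cells, 6.61-fold at 2 h and 4.74-fold at 8 h. At least 1.5-fold lower in odd-numbered pools were 2 nuclear members in untreated cells, 7 at 2 h and 8 at 8 h. These were 2.74%, 9.59% and 10.96% of members, beside 8.82%, 8.70% and 9.78% of all genes. Cox6c, a small subunit of complex IV, was among them each time, with log2 ratios of -0.82, -0.77 and -1.11. At 8 h they included Sdhb at -0.89 and Ndufb9 at -0.88. Ratios of the nuclear sum were -0.07, -0.14 and -0.22, beside medians over all genes of -0.11, -0.15 and -0.11.

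**Figure D3:**
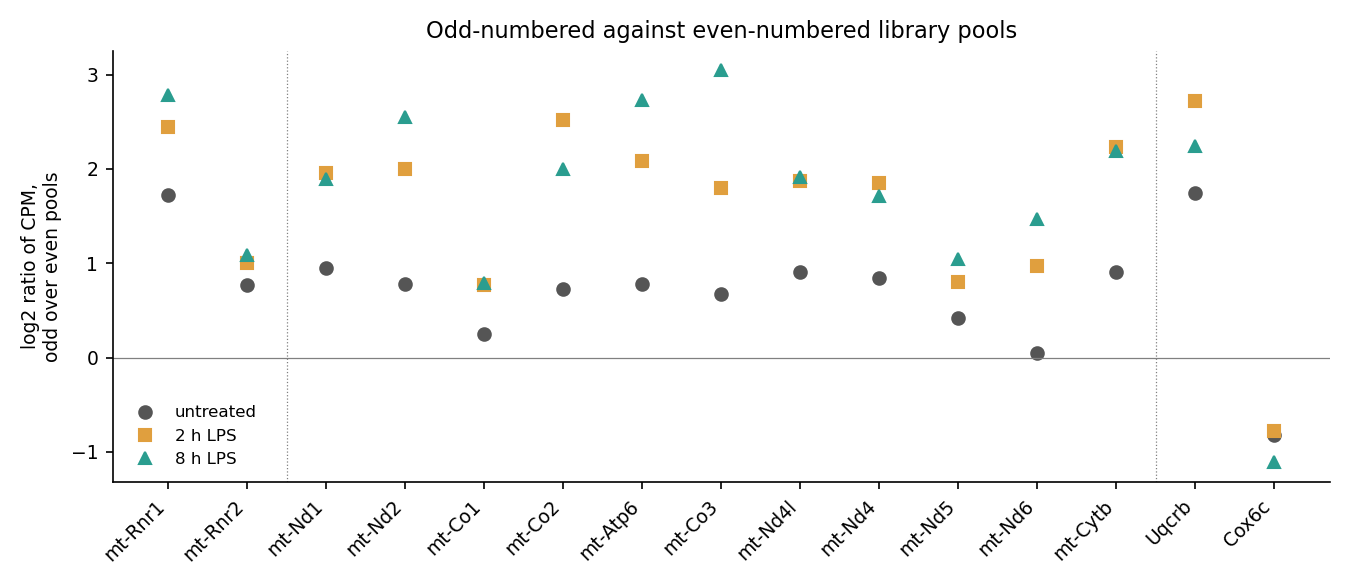
Log2 ratio of the CPM in odd-numbered over even-numbered library pools, both genotypes together, at each time point, for the mitochondrial rRNAs, the 11 mitochondrial-encoded members with at least 300 UMIs in genome order, and the nuclear members Uqcrb and Cox6c. All mitochondrial points lie above 0, from 0.05 for mt-Nd6 in untreated cells to 3.04 for mt-Co3 at 8 h, and Uqcrb lies among them.

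Nuclear-encoded members were compared one by one where they held at least 300 UMIs over the 6 samples, which 73 of 79 did. Ndufv1 was the complex I member below it, with 219 UMIs. Cox6a2, Cox7a1 and Cox7b2 were also below it, as were Atp5s and Atp5sl, which RefSeq now names Dmac2l and Dmac2. A member counts below as higher or lower when its CPM differed at least 1.5-fold between a pair of samples, and the share of the 5090 genes past the same fold stands beside each count.

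At 2 h in wild-type cells, 0 of 73 nuclear members were 1.5-fold higher (7.92% of all genes) and 5 were 1.5-fold lower (9.49% of all genes). The median log2 ratio of the members was -0.24 beside -0.09 over all genes. Uqcrb, at 83.03 CPM in untreated and 26.7 CPM in 2 h wild-type cells, had the lowest ratio, -1.62 (interval -2.25 to -1.06), and it is the member that depended most on the pools. Ndufa13, a complex I subunit also known as GRIM-19, went from 378 to 233 CPM, and Atp5c1, the central stalk subunit of complex V, from 176 to 113.6 CPM. The other members past the fold were Ndufs5 and Ndufa6, at -0.60 each. The highest ratios were those of Ndufa4, Cox7a2l and Cox6c, at 0.49, 0.34 and 0.30.

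At 8 h the wild-type difference was larger. None of the 73 members was 1.5-fold higher (13.4% of all genes) and 29 were 1.5-fold lower (27.3% of all genes), with a median of -0.51 beside -0.21 over all genes and 70 of 73 members below 0. Within odd-numbered pools 36 of the 73 were lower, 49.3% beside 29.7% of all genes, with medians of -0.54 and -0.17. Within even-numbered pools 22 were lower, 30.1% and thus near the 30% of all genes, with medians of -0.40 and -0.25. Since the median of all genes was itself shifted, values are best read against it. With size factors from the median of ratios, which set that median near 0, the members' median was -0.29, and 13 members were 1.5-fold lower (18.4% of all genes) and 1 was higher (18.7%).

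Complex I, the NADH dehydrogenase, held the largest number of these members and also of all nuclear members compared. Its 34 nuclear members had a median of -0.61, with 18 past the fold, and the 4 members of complex II had a median of -0.69, with 3 past the fold. For complex III the median was -0.60 with 4 of 8 past the fold. Complex IV had a median of -0.30 with 1 of 12 past the fold and complex V had -0.35 with 3 of 15. These counts were 52.9%, 75%, 50%, 8.33% and 20% of the members of complexes I to V, beside 27.3% of all genes. They are over all pools and were not worked out within odd-numbered and even-numbered pools. Relative to the median of all genes, these medians were -0.41, -0.48 and -0.39 for complexes I, II and III and -0.09 and -0.14 for complexes IV and V.

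The lowest ratios at 8 h belonged to 3 complex I genes. Ndufb10, a membrane arm subunit at chr17:24722060-24724423, was at 140.5, 97.7 and 63.6 CPM in untreated, 2 h and 8 h wild-type cells and at 155, 121 and 115.3 CPM in Rad21-/- cells. Its 8 h ratio was -1.14 (-1.50 to -0.79) in wild-type cells and -0.42 (-0.70 to -0.15) in Rad21-/- cells. Ndufs7, an iron-sulphur subunit at chr10:80249105-80256794, was at 145.3, 129.45 and 70.7 CPM in wild-type cells and 109, 108.1 and 82.4 CPM in Rad21-/- cells, with ratios of -1.04 (-1.39 to -0.70) and -0.40 (-0.73 to -0.07). Ndufv3, a small subunit of the NADH-oxidizing arm at chr17:31520115-31531326, was at 202, 136.96 and 98.97 CPM in wild-type cells and 205, 159 and 163.15 CPM in Rad21-/- cells, with ratios of -1.03 (-1.32 to -0.74) and -0.33 (-0.56 to -0.09). In wild-type cells all 3 genes were lowest at 8 h, and the 8 h ratio was -1.33, -1.22 and -1.17 in odd-numbered pools and -0.98, -0.88 and -0.91 in even-numbered pools.

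Promoter sequences of these 3 genes from RefSeq (GRCm38.p6), 250 bases before to 50 after the start, are shown because they belong to the nuclear members with the lowest 8 h ratios in wild-type cells. Capitals mark matches on the printed strand or its complement to 3 motifs known from promoters of respiratory genes, those of NRF1 (GCGCANGCG), ETS factors (CCGGAAG) and YY1 (AAGATGGC), searched on both strands. The window of Ndufs7 lies inside the span given above, so the table set it from a start downstream of the first base of that span.
Ndufb10, chr17:24724374-24724673, minus strand: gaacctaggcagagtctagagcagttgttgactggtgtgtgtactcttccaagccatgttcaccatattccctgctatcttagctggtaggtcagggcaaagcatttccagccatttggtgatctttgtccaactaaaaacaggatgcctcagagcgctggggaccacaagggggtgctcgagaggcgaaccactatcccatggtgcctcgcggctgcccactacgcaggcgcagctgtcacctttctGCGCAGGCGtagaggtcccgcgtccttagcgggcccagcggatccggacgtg
Ndufs7, chr10:80249199-80249498, plus strand: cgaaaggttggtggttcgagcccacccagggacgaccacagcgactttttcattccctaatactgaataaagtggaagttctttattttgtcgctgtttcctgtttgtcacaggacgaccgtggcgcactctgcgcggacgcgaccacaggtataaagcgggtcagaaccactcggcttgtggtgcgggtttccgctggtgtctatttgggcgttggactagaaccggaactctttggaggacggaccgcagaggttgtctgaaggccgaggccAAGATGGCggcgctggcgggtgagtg
Ndufv3, chr17:31519865-31520164, plus strand: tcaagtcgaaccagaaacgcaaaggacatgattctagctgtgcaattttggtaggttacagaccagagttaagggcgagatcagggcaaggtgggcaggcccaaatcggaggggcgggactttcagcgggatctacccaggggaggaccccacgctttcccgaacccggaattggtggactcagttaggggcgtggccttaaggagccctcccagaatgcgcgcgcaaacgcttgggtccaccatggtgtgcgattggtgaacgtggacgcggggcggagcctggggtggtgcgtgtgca
The first holds an NRF1 match, the second a YY1 match, and the third none of the 3. Among the 67 nuclear members with a promoter in the table, 20 held the NRF1 motif, which is 29.9% beside 7.03% of all 27025 genes and 16.0% of the 3476 genes with at least 300 UMIs in the table. The ETS motif occurred in 16 members, 23.9% beside 9.93% of all genes and 19.9% of the genes with at least 300 UMIs, and the YY1 motif in 11, 16.4% beside 3.19% and 5.93%. A match is a description of these letters and not evidence of binding.

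Several other members were close to the lowest. Ndufb2 was at 161.9, 130.3 and 79.7 CPM in wild-type cells and 160.8, 161.01 and 149 CPM in Rad21-/- cells, and Ndufb8 at 286, 206 and 147.8 CPM and 302, 233 and 279.6 CPM. Both encode small accessory subunits of the membrane arm and were lower at 8 h in wild-type cells, at -1.02 and -0.95, and close to the untreated level in Rad21-/- cells, at -0.11 each. Members with the highest ratios at 8 h in wild-type cells were Ndufs4, Ndufa4 and Uqcrh. Ndufs4, an accessory subunit of complex I, was at 117, 106.06 and 169.7 CPM in wild-type cells and 105.6, 88.9 and 123.4 CPM in Rad21-/- cells. Its wild-type ratio of 0.54 (0.25 to 0.82) lay just under the 1.5-fold limit, and its Rad21-/- ratio was 0.22 (-0.07 to 0.52).

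Succinate dehydrogenase is complex II and also an enzyme of the TCA cycle. Sdha, the flavoprotein, was at 85.1, 74.3 and 52.1 CPM in wild-type cells and 82.5, 71.3 and 74.9 CPM in Rad21-/- cells. Sdhb, the iron-sulphur subunit, was at 149, 127 and 93.8 CPM and 148.1, 135 and 126 CPM. The membrane anchor Sdhc was at 193, 164 and 98.97 CPM and 162.03, 146 and 137.8 CPM, and the anchor Sdhd at 151, 134 and 114.4 CPM and 149.9, 136.98 and 145.3 CPM. Log2 ratios at 8 h were -0.71, -0.67, -0.96 and -0.40 in wild-type cells and -0.14, -0.23, -0.23 and -0.05 in Rad21-/- cells, so that all 4 genes were lower in the wild-type 8 h sample than in any other sample. These values are over all pools. With both genotypes together, odd over even ratios of Sdhb were 0.86, 0.64 and 0.54 in untreated, 2 h and 8 h cells. They were 0.81, 0.60 and 0.66 for Sdhc, 0.87, 0.85 and 1.14 for Sdha and 0.94, 0.78 and 0.82 for Sdhd.

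In Rad21-/- cells at 2 h, 0 of 73 members were 1.5-fold higher (9.21% of all genes) and 4 were 1.5-fold lower (4.85% of all genes), with a median of -0.23 beside 0.00 over all genes. These were Ndufa9, Ndufa5, Atp5g1 and Uqcrq, at -0.66, -0.64, -0.61 and -0.59, and 67 of 73 members were below 0. The highest were Ndufa4, Atp5g2 and Cox6c, at 0.40, 0.33 and 0.07, and the value of Atp5g2 was -0.15 in odd-numbered and 0.66 in even-numbered pools. At 8 h, 0 members were higher (16.2% of all genes) and 3 were lower (11.9% of all genes), with a median of -0.13 beside 0.02. The 3 were Ndufb5 at -0.73, Ndufa9 at -0.63 and Cox7a2l at -0.59, whose ratios in wild-type cells at 8 h were -0.78, -0.50 and -0.62. The highest were Cox7a2, Ndufa4 and Cox5a, at 0.26, 0.26 and 0.23, and the value of Cox7a2 was -0.04 in odd-numbered and 0.51 in even-numbered pools.

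**Figure D4:**
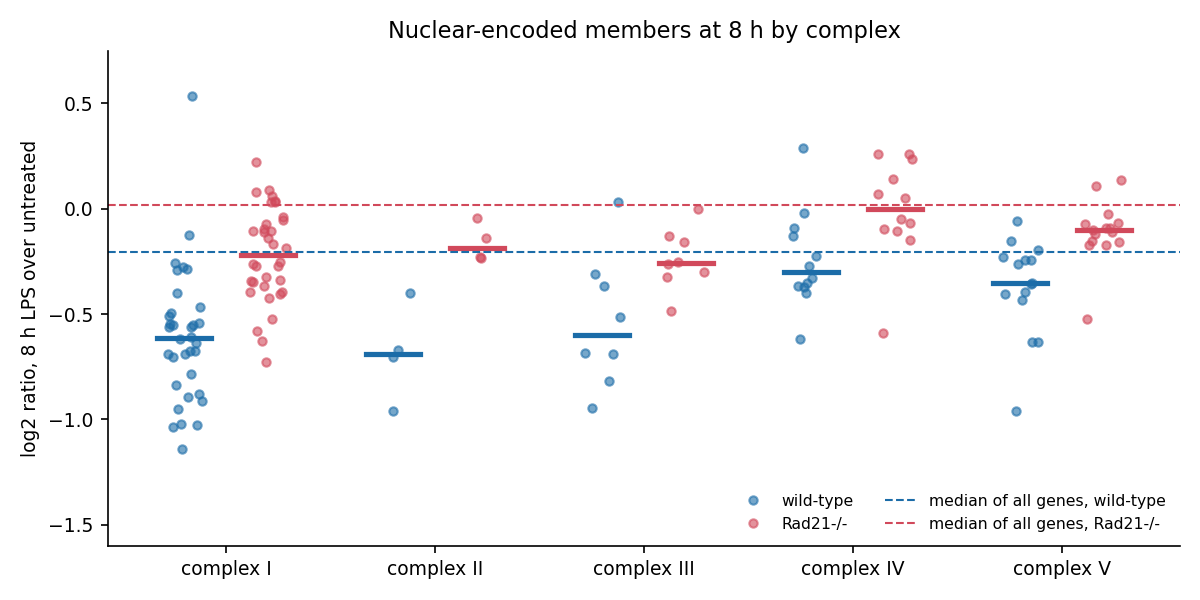
Log2 ratio of 8 h LPS over untreated for the nuclear-encoded members of each complex with at least 300 UMIs, in wild-type and Rad21-/- cells. Points are genes, thick lines are medians of a complex and dashed lines are medians over 5090 genes. Wild-type medians run from -0.69 for complex II to -0.30 for complex IV, and Rad21-/- medians from -0.26 for complex III to 0.00 for complex IV.

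Genotypes were compared within each time point, where pools are shared. In untreated cells 3 of 73 nuclear members were 1.5-fold higher in Rad21-/- cells (4.77% of all genes) and 2 were 1.5-fold lower (11.3% of all genes), and medians were 0.05 for the members and -0.03 for all genes. Uqcrh, the hinge subunit of complex III, was at 132.2, 155 and 135 CPM in wild-type cells and 233, 211 and 189 CPM in Rad21-/- cells. Its ratio was 0.82 (0.56 to 1.08) in untreated cells, 0.44 (0.16 to 0.72) at 2 h and 0.49 (0.23 to 0.74) at 8 h, and its level was higher in Rad21-/- cells in 8 of 8, 4 of 4 and 6 of 6 pools. In odd-numbered pools the 3 ratios were 0.50, 0.42 and 0.40, and in even-numbered pools 0.97, 0.46 and 0.54. Cox7a2l, which takes part in joining complexes III and IV into supercomplexes, was at 119.7, 152 and 77.8 CPM in wild-type cells and 198, 203 and 131.4 CPM in Rad21-/- cells. Its ratios were 0.72, 0.42 and 0.75, and it was higher in Rad21-/- cells in 8 of 8, 4 of 4 and 5 of 6 pools. They were 0.36, 0.64 and 0.31 in odd-numbered and 0.93, 0.28 and 1.04 in even-numbered pools. Atp5l, subunit g of the ATP synthase, was at 146, 177.9 and 140.1 CPM in wild-type cells and 226, 221 and 211 CPM in Rad21-/- cells, with ratios of 0.63, 0.31 and 0.59. It was higher in Rad21-/- cells in 7 of 8, 3 of 4 and 6 of 6 pools. Its ratios were 0.20, 0.05 and 0.39 in odd-numbered and 0.86, 0.50 and 0.73 in even-numbered pools. The untreated ratios of these 3 genes were thus short of 1.5-fold in odd-numbered pools.

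Lower in untreated Rad21-/- cells were Uqcrb, Cox7a2 and Ndufs7. Uqcrb was at 83.03, 26.7 and 46.9 CPM in wild-type cells and 45.5, 32.8 and 36.3 CPM in Rad21-/- cells, and its untreated ratio was -0.86 (-1.30 to -0.44). Cox7a2, the ubiquitous form of subunit VIIa, was at 216, 165 and 167 CPM in wild-type cells and 143, 149.8 and 171.8 CPM in Rad21-/- cells. Its ratio was -0.59 (-0.84 to -0.34) in untreated cells, with a lower level in Rad21-/- cells in 8 of 8 pools, and 0.04 (-0.20 to 0.29) at 8 h. Ndufs7 was at -0.42 (-0.72 to -0.13), short of the fold. Over all pools of untreated cells, 4 members were higher in Rad21-/- cells in every pool (5.48% of members, 4.24% of all genes) and 2 were lower in every pool (2.74% of members, 6.62% of all genes).

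At 2 h, 2 of 73 members were 1.5-fold higher in Rad21-/- cells (10.4% of all genes) and 0 were 1.5-fold lower (10.2% of all genes), with medians of 0.08 for the members and 0.06 for all genes. The 2 were Atp5g2, which encodes the membrane ring subunit c of complex V, and Ndufa13, at 0.83 (0.30 to 1.40) and 0.63 (0.41 to 0.85). Uqcr11, a small subunit of complex III, followed at 0.58 (0.29 to 0.89). The lowest were Uqcrq, Atp5g1 and Ndufa12, at -0.52, -0.35 and -0.34.

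At 8 h, 16 of 73 nuclear members were 1.5-fold higher in Rad21-/- cells (21.5% of all genes) and 0 were 1.5-fold lower (9.27% of all genes). The share past the fold upwards, 21.9%, was thus near that of all genes, while the members' median of 0.39 lay above the median of 0.22 over all genes and 69 of 73 members were above 0. In odd-numbered pools that share was 15.1% beside 21.5% of all genes, and in even-numbered pools it was 34.2% beside 25.4%. The nuclear sum was 0.39 higher on the log2 scale (interval 0.36 to 0.41), or 1.31-fold. In untreated and 2 h cells the ratio of this sum was 0.07 (0.04 to 0.09) and 0.10 (0.07 to 0.13), with -0.03 and 0.03 in odd-numbered and 0.13 and 0.15 in even-numbered pools. With size factors from the median of ratios the 8 h ratio of the sum was 0.16, and 7 members were 1.5-fold higher (11.5% of all genes) and 2 were lower (15%), so the size of the difference depended on the scale.

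In each of the 6 pools at 8 h that held both genotypes, the nuclear share was higher in Rad21-/- cells, by 0.36 to 0.47 on the log2 scale. Odd-numbered pools gave 0.36 to 0.43 and even-numbered pools 0.38 to 0.47, so the direction of this genotype difference was the same in both kinds of pool. Of 73 members, 35 were higher in Rad21-/- cells in all 6 pools, 47.9% of members beside 20.1% of all genes, and 0 were lower in all 6, beside 9.17% of all genes. Agreement over every pool also depends on the UMIs a gene held, and members and all genes were not matched for these, here or in untreated cells. None of the 11 mitochondrial-encoded members had the same direction in all 6 pools.

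Atp5g2 had the highest 8 h ratio, 1.23 (0.65 to 1.87), at 41.5, 37.6 and 21.2 CPM in wild-type cells and 53.4, 67.3 and 50.2 CPM in Rad21-/- cells. Ndufb4 was at 83.7, 61.8 and 44.3 CPM in wild-type cells and 86.8, 68.1 and 88.8 CPM in Rad21-/- cells, with a ratio of 1.00 (0.58 to 1.43), and Ndufb8 followed at 0.92 (0.69 to 1.15). Each was higher in Rad21-/- cells in 6 of 6 pools. In untreated cells the ratio of Ndufb4 was 0.05, with -0.02 in odd-numbered and 0.09 in even-numbered pools. That of Ndufb8 was 0.07 over all pools, but -0.27 in odd-numbered and 0.33 in even-numbered pools. The lowest 8 h ratios were those of Ndufs4 at -0.46 (-0.73 to -0.19), Uqcrb at -0.37 (-0.88 to 0.14) and Atp5f1 at -0.08 (-0.27 to 0.11). That of Atp5f1 was 0.19 in odd-numbered and -0.34 in even-numbered pools. By complex, the medians at 8 h were 0.43 for complex I, 0.45 for II, 0.33 for III, 0.38 for IV and 0.35 for V, all above the 0.22 of all genes, whereas the 11 mitochondrial-encoded members had a median of 0.03.

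**Figure D5:**
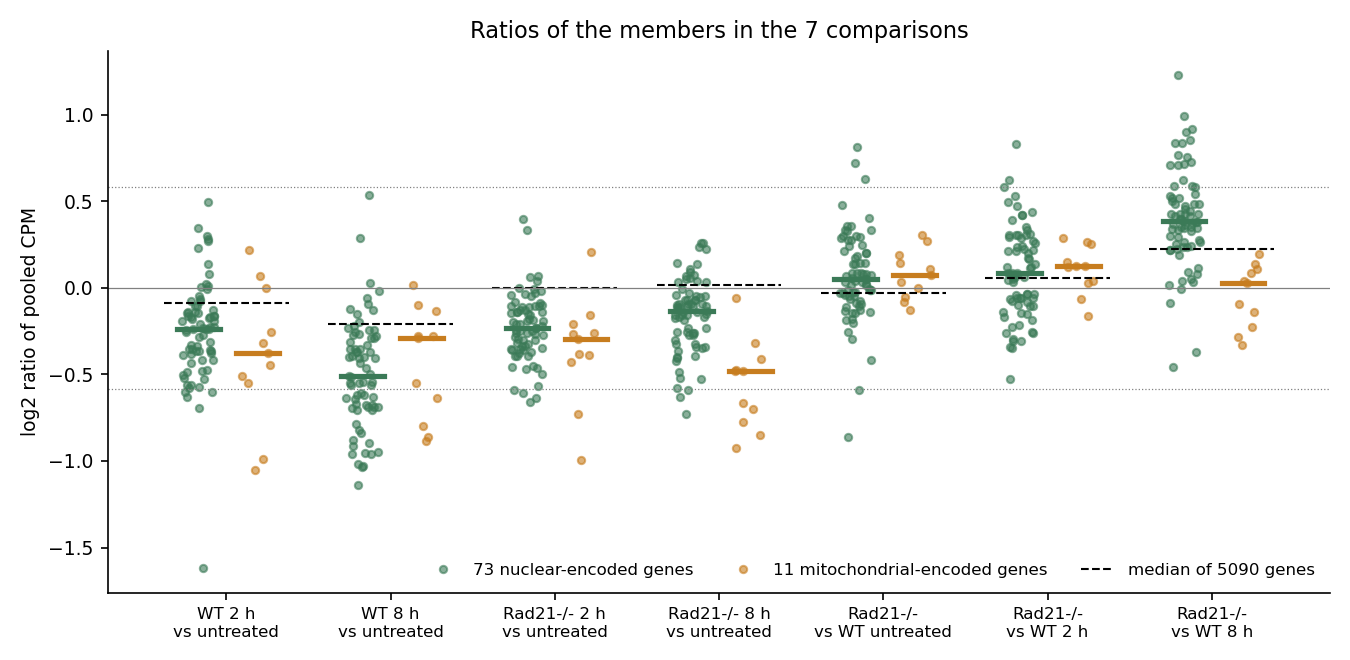
Log2 ratios of the 73 nuclear-encoded and 11 mitochondrial-encoded members with at least 300 UMIs in the 7 comparisons. Thick lines are medians of the members, dashed lines are medians over 5090 genes and dotted lines mark 1.5-fold. At 8 h the nuclear members lie below the median of all genes in wild-type cells against untreated, -0.51 beside -0.21, and above it in Rad21-/- against wild-type cells, 0.39 beside 0.22.

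The share of cells with at least 1 UMI was also compared with every cell thinned to 3800 UMIs. Its median over the nuclear members was 45.8% in untreated, 41.8% in 2 h and 35.96% in 8 h wild-type cells, and 48.9%, 46.1% and 45.8% in Rad21-/- cells. Between 21 and 47 cells per sample were too shallow for this and were left out, and all wells were used. Without thinning, the medians were 60.3%, 58.1% and 48.6% in wild-type cells and 62.6%, 60.8% and 67.0% in Rad21-/- cells. The wild-type 8 h sample was lowest with and without thinning, as for the nuclear sum, whereas the order of the other samples differed between these measures.

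Members with the most UMIs were Cox4i1, Cox6a1, Atp5e, Cox8a and Atp5g3. Cox4i1, the regulatory subunit of complex IV, was at 626, 582 and 485 CPM in wild-type cells and 828, 779 and 747 CPM in Rad21-/- cells. It was higher in Rad21-/- cells at each time, at 0.40 (0.28 to 0.53), 0.42 (0.28 to 0.56) and 0.62 (0.49 to 0.76), in 8 of 8, 4 of 4 and 6 of 6 pools. Cox6a1 was at 724, 566 and 548 CPM in wild-type cells and 742, 615 and 694 CPM in Rad21-/- cells, and Atp5e, the epsilon subunit of complex V, at 648, 507 and 490.3 CPM and 631, 530.3 and 559 CPM. Cox8a was at 456, 463 and 391 CPM and 558, 546 and 532 CPM. Atp5g3, a further gene of subunit c, was at 466, 445 and 388 CPM and 459, 427 and 494 CPM, so its genotype difference was seen at 8 h, at 0.35 (0.20 to 0.50), and not in untreated cells, at -0.02 (-0.17 to 0.13).

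Several subunits come from gene families with isoforms of different tissues. For subunit VIa of complex IV, the widely expressed Cox6a1 stood beside the heart and muscle form Cox6a2, at 6.43 to 17.99 CPM. For subunit VIIa, Cox7a2 stood beside the heart and muscle form Cox7a1, at 5.61 to 24.3 CPM. Cox7b, at 236 to 309.6 CPM, stood beside Cox7b2, at 6.41 to 9.22 CPM, and Cox6b1 was at 357 to 505 CPM. The 3 genes of subunit c, which yield the same mature protein, had 8 h genotype ratios of 0.43 for Atp5g1, 1.23 for Atp5g2 and 0.35 for Atp5g3. Atp5g1 was at 60.9, 64.3 and 51.4 CPM in wild-type cells and 77.1, 50.5 and 69.2 CPM in Rad21-/- cells.

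Ndufa4, first assigned to complex I and now counted as a complex IV subunit, was the member with higher values under LPS in every comparison. It was at 74.03, 104 and 90.6 CPM in wild-type cells and 91.03, 120.2 and 109 CPM in Rad21-/- cells, with ratios of 0.49 (0.11 to 0.88) and 0.29 (-0.08 to 0.67) in wild-type cells and 0.40 (0.06 to 0.74) and 0.26 (-0.06 to 0.58) in Rad21-/- cells. A paralog of Ndufa4 outside the name rule, AA467197, was looked at after its values were seen. It was at 3.46, 17.5 and 364 CPM in wild-type cells and 9.71, 6.41 and 52.5 CPM in Rad21-/- cells, so it was high in the wild-type 8 h sample, where 70 of 73 nuclear members were below their untreated level.

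Genes of neighbouring mitochondrial pathways were taken from lists. Of 77 mitochondrial ribosomal protein genes in the matrix, 42 held at least 300 UMIs. At 8 h in wild-type cells 23 of these were 1.5-fold lower (27.3% of all genes) and 1 was higher (13.4%), with a median of -0.75, and in Rad21-/- against wild-type cells at 8 h 20 were higher (21.5% of all genes) and 0 lower (9.27%), with a median of 0.57. Assembly factors of the complexes had a median of -0.84 at 8 h in wild-type cells, with 7 of 12 lower and 2 higher, and a median of 0.65 between genotypes at 8 h, with 7 of 12 higher and 0 lower, to be read beside the same shares of all genes. The copper chaperone Cox17, one of these, was higher at 8 h in both genotypes, at 330.0, 299 and 503 CPM in wild-type cells and 302, 238 and 425 CPM in Rad21-/- cells. TCA cycle genes had a median of -0.57 at 8 h in wild-type cells, with 5 of 11 lower and 1 higher (27.3% and 13.4% of all genes), and 0.23 between genotypes at 8 h, with 2 higher and 0 lower (21.5% and 9.27%).

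Cytochrome c, the soluble carrier between complexes III and IV, went the other way. Cycs was at 44.3, 41.8 and 82.9 CPM in wild-type cells and 26.1, 24.8 and 92.8 CPM in Rad21-/- cells, high at 8 h in both, whereas Cyc1, the subunit of complex III that hands it electrons, was at 69.9, 61.8 and 58.5 CPM and 76.5, 49.7 and 58.2 CPM. Of 17 genes for copying and transcription of mitochondrial DNA, 1 passed the minimum, the single-strand binding protein gene Ssbp1, at 65.04, 33.4 and 41.1 CPM in wild-type cells and 42.5, 42.5 and 36.3 CPM in Rad21-/- cells. Of 8 regulators of respiratory genes, 1 passed, Yy1, at 52.6, 49.3 and 37.9 CPM and 57.7, 63.3 and 49.6 CPM. Mitochondrial rRNA, 2 of 8 rRNA and tRNA rows with enough UMIs, was at 36928, 27268 and 30825 CPM in wild-type cells and 43243, 30862 and 30667 CPM in Rad21-/- cells.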

How the data were processed

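Single-cell RNA-seq by MARS-seq of wild-type and Rad21-/- bone marrow-derived macrophages, untreated or with 2 or 8 h of LPS, gave 6 samples, 1 per combination of genotype and time. The authors assigned reads to pools and wells by barcode, trimmed polyT, mapped with GEMTools 1.7.0 to GRCm38.p4 (version per the labels), dropped wells with over 15% spike-in or under 60% mapped reads, and collapsed UMIs at an edit distance of up to 2. The deposited values are UMI counts of each gene in each cell, as counted and not normalized.

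UMIs were summed per sample over cells with at most 25000 UMIs and expressed as CPM of all UMIs. Intervals at 95% are exact (Poisson for levels, Clopper-Pearson on the split of UMIs for ratios) and cover counting error only. Ratios of single genes had 0.5 UMI added to each sample, and genes needed 300 UMIs over the samples. There was no test, and a member counted as higher or lower at 1.5-fold. Values within pools needed 10 cells of each genotype. Named members were all mitochondrial-encoded genes, the 3 highest and 3 lowest nuclear members of each of the 7 comparisons, the 5 with the most UMIs, the Sdh genes, isoform groups, and up to 3 genes per list by UMIs. Members and lists were chosen with earlier results of these data known. The split by odd and even pool numbers was added after seeing the data.

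Python 3.11.15, numpy 2.4.6, pandas 2.3.3, scipy 1.17.1 and matplotlib 3.10.9 were used, and the ratio and its interval were tested on simulated data. Positions, names and promoters are from RefSeq (GRCm38.p6), and a genome of another build was not used here. Per the study's methods, reads that mapped ambiguously were not counted.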

Additional observations from a re-analysis of the deposited data

Results flagged for a closer look

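Some results differed in direction between groups, and none of these differences was tested, since each group was 1 sample. The mitochondrial-encoded sum in Rad21-/- against wild-type cells had a log2 ratio of 0.061 in untreated cells and -0.11 at 8 h. Cox7a2 had a log2 ratio at 8 h of -0.37 in wild-type and 0.26 in Rad21-/- cells, the latter -0.036 in odd-numbered and 0.51 in even-numbered pools. For Uqcrq, the ubiquinone-binding subunit of complex III, the genotype ratio was -0.30 before LPS, -0.52 at 2 h and 0.24 at 8 h, and it was lower in Rad21-/- cells in 8 of 8 and 4 of 4 pools and then higher in 6 of 6 pools. The 2 h ratio of mt-Co1 was 0.066 in wild-type and -0.21 in Rad21-/- cells, but 0.26 and 0.11 in odd-numbered and -0.093 and -0.68 in even-numbered pools. Its genotype ratio was 0.11 before LPS, -0.16 at 2 h and -0.22 at 8 h. In odd-numbered pools that ratio of mt-Co1 was 0.34, 0.19 and 0.04, and in even-numbered pools -0.07, -0.66 and -0.66. The genotype ratio of mt-Cytb was 0.19 before LPS, 0.15 at 2 h and -0.10 at 8 h, with 0.34, 0.36 and 0.071 in odd-numbered and 0.016, -0.76 and -0.86 in even-numbered pools.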

How the results depend on the processing

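Values below are log2 ratios of the sums in the order wild-type 2 h, wild-type 8 h, Rad21-/- 2 h and Rad21-/- 8 h against untreated cells, then Rad21-/- against wild-type cells untreated, at 2 h and at 8 h. The causes of the differences between settings were not tested. For the mitochondrial-encoded sum, odd-numbered pools alone gave -0.048, -0.18, 0.062, -0.28, 0.20, 0.31 and 0.090, so that Rad21-/- at 2 h and the genotype ratio at 8 h reversed. Even-numbered pools gave -0.62, -0.89, -1.26, -1.49, -0.079, -0.72 and -0.69, so that the untreated genotype ratio reversed. Both splits were chosen after seeing the data. With all wells the mitochondrial sum moved to -0.79, -0.52 and -0.31 in the first 3 comparisons and to 0.0068, 0.49 and -0.061 between genotypes. With the mean of the cells' CPM it was -0.23 in wild-type cells at 2 h, -0.23 and -0.52 in Rad21-/- cells, and 0.11, 0.11 and 0.0067 between genotypes, the last reversed. Median-of-ratios size factors gave -0.22 and -0.19 in wild-type cells, -0.60 in Rad21-/- cells at 8 h, and 0.082, -0.044 and -0.33 between genotypes, of which the 2 h value changed sign.

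For the nuclear-encoded sum, odd-numbered pools gave -0.30, -0.55, -0.25, -0.18, -0.026, 0.030 and 0.35, with the untreated genotype ratio reversed. Even-numbered pools gave -0.22 and -0.36 in wild-type cells, -0.074 in Rad21-/- cells at 8 h, and 0.13, 0.15 and 0.42 between genotypes. Size factors gave -0.17 and -0.23 in wild-type cells, -0.16 in Rad21-/- cells at 8 h, and 0.038 and 0.16 between genotypes at 2 and 8 h. The same factors moved the median of all genes at 8 h, from -0.21 to 0.01 in wild-type cells and from 0.22 to -0.01 between genotypes. Such factors shift all genes of a comparison alike, so the members' median minus that of all genes, -0.30 and 0.16, could not change. With the cells' mean the nuclear sum was -0.29 in wild-type cells at 2 h and 0.039 between untreated genotypes. Rad21-/- cells at 8 h were at -0.16 with all wells, and at 2 and 8 h at -0.25 and -0.16 when the total left out mitochondrial rows.

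Counts of nuclear members past the fold moved with the fold itself. Except with size factors, the share of all genes was not worked out for the counts of this paragraph. Those counts show how the settings move them and cannot be read against all genes. At the lower of the other limits tried, 2 were higher and 29 lower in wild-type cells at 2 h, 1 higher and 52 lower at 8 h, 2 higher and 23 lower in Rad21-/- cells at 2 h, and 17 lower at 8 h. Between genotypes 10 were higher in untreated cells, 12 higher and 3 lower at 2 h, and 49 higher and 2 lower at 8 h. At 2-fold, 1 and 4 were lower in wild-type cells and 0 and 0 in Rad21-/- cells, 0 were higher and 0 lower between untreated genotypes, and 0 and 1 higher at 2 and 8 h. In odd-numbered pools, where 60 members were compared, 1 was higher and 16 lower in wild-type cells at 2 h, 1 higher at 8 h, 1 and 6 lower in Rad21-/- cells, 1 higher between untreated genotypes, 1 lower at 2 h and 7 higher at 8 h. In even-numbered pools, with 66 members, 19 were lower in wild-type cells at 8 h, 1 in Rad21-/- cells at 8 h and 0 between untreated genotypes, and 4 were higher at 2 h. Size factors left 2 lower in wild-type cells at 2 h (6.68% of all genes), and 1 higher and 13 lower at 8 h (18.7% and 18.4%). Between genotypes 1 was lower in untreated cells (10.9% of all genes), and 1 was higher and 1 lower at 2 h (8.29% and 11.8%). At 8 h 7 were higher and 2 lower between genotypes (11.5% and 15%). All wells gave 1 lower in wild-type cells at 2 h and 1 higher between genotypes at 2 h, the cells' mean 9 and 1 lower in these comparisons, and the total without mitochondrial rows 1 lower between untreated genotypes. A minimum of 1000 UMIs left 3 lower in wild-type and 1 in Rad21-/- cells at 2 h, 1 lower between untreated genotypes and 1 higher at 2 h. No minimum gave 8 lower in wild-type cells at 2 h, 7 and 6 lower in Rad21-/- cells at 2 and 8 h, and 2 lower between genotypes at 2 h.

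Leaving out 1 of the 24 pools at a time, the mitochondrial sum ran from -0.52 to -0.10, -0.57 to -0.24, -0.76 to -0.044 and -0.76 to -0.33 against untreated cells, and from 0.0018 (without pool 4) to 0.13, from -0.19 (without pool 15) to 0.21 (without pool 16) and from -0.23 (without pool 17) to 0.0077 (without pool 20) between genotypes. The nuclear sum ran from -0.28 to -0.23, -0.48 to -0.42, -0.26 to -0.19 and -0.18 to -0.084, and from 0.039 to 0.083, 0.074 to 0.12 and 0.37 to 0.40. Counts of lower members ran from 3 to 9, 26 to 32, 2 to 5 and 1 to 7 against untreated cells, the last with pools 19 and 20 left out in turn, and of higher members from 0 to 1, 0 to 1, 0 to 0 and 0 to 0. Between genotypes 2 to 4, 1 to 3 and 13 to 18 were higher and 1 to 2, 0 to 0 and 0 to 1 lower. No paired analysis was possible because each group holds 1 sample. With 1 sample per group, the spread between cultures is unknown, and depth limits single genes most near the minimum of 300 UMIs.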
